A study of Rattus norvegicus with 9 samples.

Results

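The genes described here are those of sterol regulatory element-binding protein 2 (SREBP-2) control and of LDL receptor turnover, taken by symbol from the deposited table of liver read counts. There were 6 such genes (Srebf2, Scap, Insig1, Insig2, Mylip and Stard4) among 24496 listed, all 6 had reads in every library, and all 6 passed the filter on low counts. Livers came from 9 female ovariectomised Wistar rats aged 19 weeks, 1 library per rat: 4 rats had received degarelix and follicle-stimulating hormone (FSH) from osmotic pumps at 6 µg per kg per day, and 5 had received degarelix and pumps with vehicle only. Degarelix, given to both groups, blocks the receptor for gonadotropin-releasing hormone and so lowers the animals' own gonadotropins. In both groups the western diet began at 10 weeks of age, 6 weeks before the ovaries were removed. A phase of limited feeding (12 days) was followed by one of free feeding (7 days) and a final fast of 4 h. The comparison asks what FSH itself changes in the liver when ovarian hormones and endogenous gonadotropins are meant to be low. The control rats too were ovariectomised and received degarelix.

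SREBP-2 is a membrane-bound transcription factor that switches on cholesterol synthesis and LDL uptake. When sterols are scarce, the escort protein Scap carries it from the endoplasmic reticulum to the Golgi, where proteases release its active part; when sterols are plentiful, the Insig proteins hold Scap back. The LDL receptor can in turn be sent for degradation by Mylip (also called IDOL), a ubiquitin ligase known as a target of the sterol-sensing receptors LXR. Whether Mylip acts in this way in rat hepatocytes was not tested here. Levels below are counts scaled to library size (CPM) and between libraries by the trimmed mean of M values, and are compared within a gene only, since no transcript lengths were used.

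Library totals were 23430807 to 27008941 counts in the FSH group and 19295580 to 28672439 counts in the vehicle group, and no library repeated another of its own group within counting noise. Summed hepatocyte markers stood at 175239 to 282179 CPM with FSH and 200769 to 245024 CPM with vehicle, so the tissue label and its markers match. Albumin took 19.4% of counts in FSH replicate 1 and 10.5 to 16.7% in the other 8 libraries. Among markers of other cells, 9 of 9 sinusoidal endothelial genes had positive fold changes (summed level 309 to 422 CPM with FSH, 260 to 349 CPM with vehicle), and 9 of 9 stellate cell genes had negative ones (173 to 206 CPM with FSH, 220 to 287 CPM with vehicle). The erythroid markers had positive fold changes in 4 of 4. In each of these lists 0 genes passed the test described below, and 50.5% of all tested genes had positive fold changes. The part of these cells in the values below was not tested. Fewer cells of a type and less RNA per cell cannot be told apart in bulk tissue.

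None of the 6 genes passed the test for a change with FSH. In edgeR's quasi-likelihood test 0 of 6 passed an adjusted p (false discovery rate, FDR) of 0.05, against 0.0335% of the 11924 genes tested, and 0 of 6 had groups that did not overlap, against 4.11%. At an unadjusted p under 0.05 there was 1 of 6, Insig1, lower with FSH. Of all tested genes 11.6% were under that p in either direction and 5.14% were under it and lower. DESeq2 and limma-voom likewise called 0 of 6. The median log2 fold change over the 6 was 0.01, with 3 positive and 3 negative, and that of all tested genes was 0.0019.

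**Figure D1:**
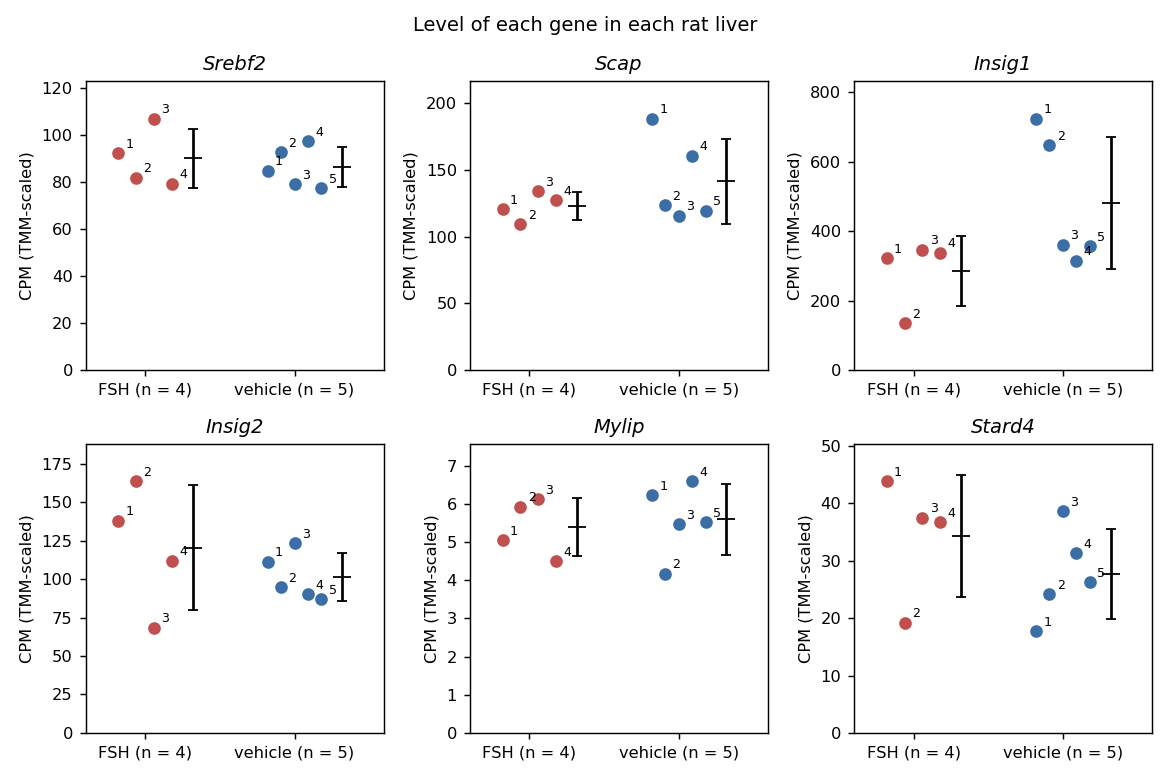
CPM of each gene in each rat, FSH left and vehicle right, with numbers giving the replicate and bars giving the mean ± SD; each panel has its own axis from 0. The groups overlap in all 6 panels, and the spread between rats is widest for Insig1, where vehicle replicates 1 and 2 are high and FSH replicate 2 is low.

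Srebf2 (ENSRNOG00000007400), which encodes SREBP-2 itself, had the smallest coefficient of variation of the 6 in the fit over all rats. It stood at 92.4, 81.9, 107 and 79.3 CPM in FSH replicates 1 to 4 and at 84.9, 92.8, 79.2, 97.3 and 77.5 CPM in vehicle replicates 1 to 5. Only FSH replicate 3 lay above the vehicle range. The means were 90.2 ± 12.5 CPM with FSH and 86.3 ± 8.58 CPM with vehicle (SD, n = 4 and 5), and the log2 fold change was 0.06 (SE 0.11, 95% interval −0.17 to 0.30, edgeR adjusted p = 0.863). The interval allows a fold of 0.886 to 1.23. Without FSH replicate 3 the log2 fold change was −0.034, so these data give Srebf2 no direction.

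Scap (ENSRNOG00000020853), the sterol-sensing escort of SREBP proteins, had 121, 109.5, 134 and 127 CPM with FSH and 188, 124, 116, 161 and 119 CPM with vehicle. Vehicle replicates 1 and 4 were above every FSH rat, and the other 3 vehicle rats lay among the FSH rats. Scap averaged 123 ± 10.4 CPM with FSH and 142 ± 31.8 CPM with vehicle, a log2 fold change of −0.20 (SE 0.15, 95% interval −0.53 to 0.13, edgeR adjusted p = 0.644). Vehicle replicate 1 carried most of that value, which was −0.08 without it.

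Insig1 (ENSRNOG00000006859), an endoplasmic reticulum protein that retains Scap and is itself a target of SREBP, gave the largest difference of the 6. Its levels were 322, 135, 347 and 339 CPM in FSH replicates 1 to 4 and 724, 648, 362, 315 and 357 CPM in vehicle replicates 1 to 5. FSH replicates 1, 3 and 4 sat with vehicle replicates 3, 4 and 5 in one narrow band. The difference in means, 286 ± 101 CPM with FSH and 481 ± 189.7 CPM with vehicle, therefore rests on the 2 high vehicle rats and the low FSH rat.
The log2 fold change of Insig1 was −0.75 (SE 0.33, 95% interval −1.48 to −0.02), a fold of 0.593 with an interval of 0.358 to 0.984. Its unadjusted p was 0.0443, the 1264th smallest of 11924, and its edgeR adjusted p was 0.418. On leaving out each rat in turn, the log2 fold change ran between −0.88 and −0.52, the weakest value being that without FSH replicate 2, and the edgeR adjusted p between 0.381 and 0.624. The biological coefficient of variation of Insig1 was 0.341, higher than in 94.3% of tested genes, while that of Srebf2 was 0.132 and lay at the 42.5th percentile.

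**Figure D2:**
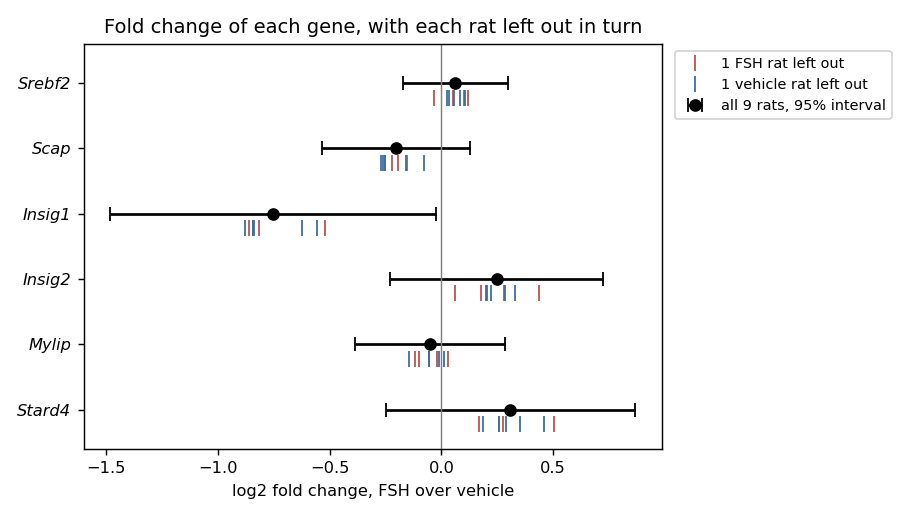
Log2 fold change of each gene, FSH over vehicle, with its 95% interval from all 9 rats (black) and the value with 1 rat left out (ticks, red for an FSH rat and blue for a vehicle rat). The Insig1 interval ends at −0.02 and all its ticks are negative, whereas the ticks of Srebf2 and Mylip fall on both sides of 0.

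Insig2 (ENSRNOG00000002478), the second Scap-retaining protein, is known in mouse liver for a transcript that insulin lowers and fasting raises. Its levels were 138, 163, 68.5 and 112 CPM with FSH and 111, 94.6, 123, 90.2 and 86.9 CPM with vehicle. The FSH rats straddled the vehicle range: replicates 1 and 2 lay above it, replicate 3 below it and replicate 4 within it. Insig2 averaged 120.4 ± 40.5 CPM with FSH and 101 ± 15.5 CPM with vehicle, with a log2 fold change of 0.25 (SE 0.22, 95% interval −0.23 to 0.73, edgeR adjusted p = 0.705). This value was 0.06 without FSH replicate 2 and 0.44 without FSH replicate 3. The coefficient of variation was 33.7% among FSH rats and 15.3% among vehicle rats, a difference that was not tested.

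The 2 Insig genes were set against each other within each library, where depth and scaling cancel. Insig1 had 2.34, 0.823, 5.07 and 3.03 counts per Insig2 count in FSH replicates 1 to 4, and 6.50, 6.85, 2.93, 3.50 and 4.11 in vehicle replicates 1 to 5. These are ratios of counts and not of molecules, since transcript lengths were not used. FSH replicate 2 was the only liver with fewer Insig1 than Insig2 counts (3316 and 4027), having both the lowest Insig1 and the highest Insig2 of the 9, and vehicle replicates 1 and 2 had the highest ratios. The groups overlapped, since FSH replicates 3 and 4 lay within the vehicle range.

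**Figure D3:**
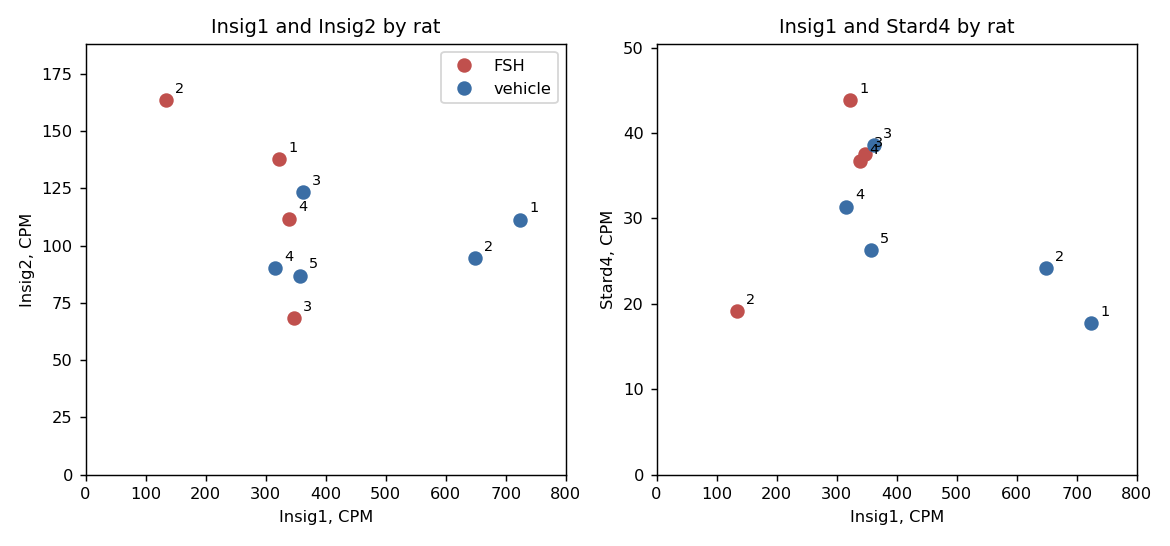
Insig1 CPM (x axis) against Insig2 CPM (left) and Stard4 CPM (right), 1 point per rat, red for FSH and blue for vehicle, numbered by replicate. FSH replicate 2 combines the lowest Insig1 with the highest Insig2, and vehicle replicates 1 and 2 combine high Insig1 with low Stard4.

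The RefSeq promoter windows of Srebf2 and Insig1 (build GRCr8, 250 bases before to 50 after the annotated start) are shown because both genes are known SREBP targets. Motifs outside the windows were not searched for, and any part of the motifs in the spread between rats was not tested. Capitals mark the motifs found: in Srebf2 a shortened sterol response element core, TCACCCCA, and an NF-Y box, CCAAT, read here from the other strand; in Insig1 the same NF-Y box and an E-box, CACGTG.
Srebf2, chr7:115543057-115543356, plus strand: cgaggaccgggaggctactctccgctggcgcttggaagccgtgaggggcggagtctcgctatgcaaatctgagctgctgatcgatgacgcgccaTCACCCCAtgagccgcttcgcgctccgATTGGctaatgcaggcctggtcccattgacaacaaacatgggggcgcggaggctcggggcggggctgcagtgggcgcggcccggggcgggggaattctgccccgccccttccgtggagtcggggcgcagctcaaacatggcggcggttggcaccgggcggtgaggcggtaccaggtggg
Insig1, chr4:8057720-8058019, minus strand: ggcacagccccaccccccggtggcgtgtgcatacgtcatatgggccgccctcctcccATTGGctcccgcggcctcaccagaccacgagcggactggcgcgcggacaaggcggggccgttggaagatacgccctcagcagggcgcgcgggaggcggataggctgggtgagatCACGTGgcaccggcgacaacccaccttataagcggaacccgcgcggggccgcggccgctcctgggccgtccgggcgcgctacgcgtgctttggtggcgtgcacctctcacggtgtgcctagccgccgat
The sterol response element core searched first, TCACNCCAC on either strand, was in none of the 5 windows at hand (Srebf2, Scap, Insig1, Insig2 and Mylip) and in 1.12% of all 33469 windows. The shortened core was looked for after the sequences had been seen; it starts 156 bases before the Srebf2 start, is in none of the other 4 windows and in 1.37% of all. CCAAT was in 4 of the 5 windows, all but Scap, and in 37.5% of all; CACGTG, also added after seeing the sequences, was in Insig1 and Scap and in 6.42% of all. The start on which each window is placed lies inside the annotated span of its gene, by 533 bases in Srebf2, 43 in Insig1, 72 in Scap, 19 in Mylip and 12839 in Insig2. The Srebf2 and Insig2 windows thus lie wholly within their genes, and the motif positions in Srebf2 are counted from that inner start. Stard4 has no entry.

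Stard4 (ENSRNOG00000020468), a soluble carrier that moves cholesterol between membranes and is a known SREBP-2 target in mouse, had 43.8, 19.2, 37.5 and 36.7 CPM with FSH. Its levels with vehicle were 17.8, 24.2, 38.6, 31.4 and 26.3 CPM. FSH replicate 1 was the highest of the 9 rats, and FSH replicate 2 lay near the bottom of the vehicle range. Stard4 averaged 34.3 ± 10.6 CPM with FSH and 27.6 ± 7.84 CPM with vehicle, for a log2 fold change of 0.31 (SE 0.25, 95% interval −0.25 to 0.87, edgeR adjusted p = 0.684). The value ran from 0.17 without FSH replicate 1 to 0.50 without FSH replicate 2. The interval runs from a fold of 0.841 to one of 1.83.

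Mylip (ENSRNOG00000017579), the ligase that marks the LDL receptor for degradation, was the least counted of the 6, at 104 to 159 counts per library with FSH and 104 to 167 with vehicle. That is 5.04, 5.93, 6.13 and 4.49 CPM with FSH and 6.23, 4.18, 5.48, 6.59 and 5.53 CPM with vehicle. All 4 FSH rats lay inside the vehicle range. The means were 5.40 ± 0.766 CPM with FSH and 5.60 ± 0.926 CPM with vehicle, and the log2 fold change was −0.05 (SE 0.15, 95% interval −0.39 to 0.29, edgeR adjusted p = 0.930). It took either sign on leaving out single rats, between −0.15 and 0.028.

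The rest of the pathway was counted over 5 lists of genes. Of 24 genes of SREBP processing and sterol-regulated degradation, 0 passed in edgeR (2 at an unadjusted p under 0.05), 15 had positive and 9 negative fold changes, and the median was 0.05. Closest was Sec23a, a coat protein of the vesicles that carry Scap to the Golgi, at 72.5, 66.4, 64.7 and 65.9 CPM with FSH and 46.4, 48.5, 48.4, 53.0 and 47.8 CPM with vehicle. Its groups did not overlap, and a log2 fold change of 0.46 with SE 0.07 left it at an edgeR adjusted p of 0.0515. It was past the threshold with DESeq2 (adjusted p = 2.35e-07), which called 181 genes in all against 4 in edgeR, and with limma-voom (adjusted p = 0.0457). On leaving out each rat in turn, the log2 fold change of Sec23a ran between 0.43 and 0.49 and its edgeR adjusted p between 0.0792 and 0.195. The next were Sar1b, the small GTPase of the same coat, at 0.21 (SE 0.09, edgeR adjusted p = 0.425), and Paqr3, a Golgi protein that tethers Scap, at 0.56 (SE 0.26, edgeR adjusted p = 0.445). Paqr3 had a value of 0.29 without FSH replicate 4.

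Of 24 genes of LDL receptor trafficking and turnover, 0 passed in edgeR (2 unadjusted), 11 were positive and 13 negative, and the median was −0.01. Commd6 and Commd1, of the complex that recycles receptors from endosomes, had log2 fold changes of −0.37 (SE 0.15, edgeR adjusted p = 0.387) and −0.16 (SE 0.07, edgeR adjusted p = 0.428), and that of Commd6 was −0.23 without vehicle replicate 1. Rxra, the partner of LXR at genes such as Mylip, had 0.18 (SE 0.09, edgeR adjusted p = 0.445), and 0.12 without FSH replicate 3. The fold changes of these 24 genes, which do not include Mylip, lay between −0.37 and 0.18.

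Of 19 enzymes from the mevalonate pathway to cholesterol, which SREBP-2 is known to control, 0 passed in edgeR (2 unadjusted), with 8 positive, 11 negative and a median of −0.10. The smallest p-values were those of Mvd (−0.86, SE 0.31, edgeR adjusted p = 0.350) and Mvk (−0.62, SE 0.26, edgeR adjusted p = 0.401), both enzymes of the mevalonate steps. Mvd and Mvk, like Insig1, were highest in vehicle replicates 1 and 2, where Mvd stood at 29.3 and 22.8 CPM, against 6.98 to 16.5 CPM with FSH and 12.3 to 20.2 CPM in the other vehicle rats.

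Of 16 tested genes of sterol transfer, esterification and lysosomal exit, 0 passed in edgeR (3 unadjusted), with 8 positive, 8 negative and a median of 0.01. Nceh1, a cholesteryl ester hydrolase, and Lipa, the lysosomal acid lipase that frees cholesterol from LDL, had 0.51 (SE 0.18, edgeR adjusted p = 0.353) and 0.25 (SE 0.09, edgeR adjusted p = 0.358). Tmem97, a sterol-responsive membrane protein, had −0.33 (SE 0.12, edgeR adjusted p = 0.363). Of 9 tested genes of sterol efflux and LXR targets, 0 passed in edgeR (2 unadjusted), with 5 positive, 4 negative and a median of 0.04. Abcg8, a subunit of the biliary sterol exporter, had 1.76 (SE 0.71, edgeR adjusted p = 0.390), but only 0.53 without FSH replicate 3. Srebf1, which encodes the lipogenic relative SREBP-1, had −0.56 (SE 0.22, edgeR adjusted p = 0.390), and Scd, a fatty acid desaturase, had −1.32 (SE 0.69, edgeR adjusted p = 0.503), which was −0.52 without vehicle replicate 1. In all 5 lists DESeq2 and limma-voom called no gene other than Sec23a.

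**Figure D4:**
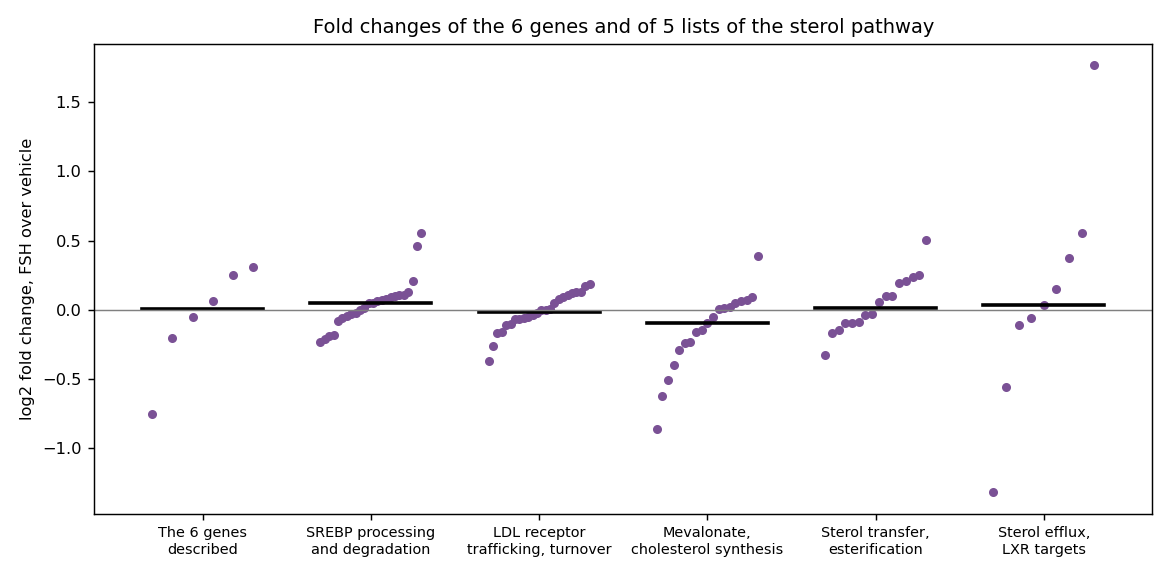
Log2 fold change, FSH over vehicle, of each tested gene (points) with the list median (bar), for the 6 genes and 5 lists of the sterol pathway. The medians lie between −0.10 and 0.05, and Insig1, at −0.75, is the lowest point of the first column.

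How the 6 genes varied from rat to rat was examined over all 9 livers, on log2 CPM, for the 15 pairs among them and for each against the median of the 19 cholesterol synthesis enzymes, 21 relations in all. None passed an adjusted p of 0.05 in the exact permutation test of r, and 2 had an unadjusted p under 0.05. Scap and the enzyme median gave r = 0.73 (exact permutation p = 0.0120, adjusted p = 0.199) and rho = 0.87 (exact permutation p = 0.00451, adjusted p = 0.0947), and r was 0.73 again without the 2 rats farthest from the median Scap level (vehicle replicates 1 and 4). Srebf2 gave r = 0.78 (exact permutation p = 0.019, adjusted p = 0.199), rho = 0.73 (exact permutation p = 0.0311, adjusted p = 0.327) and, without FSH replicate 3 and vehicle replicate 4, r = 0.72. With values centred within each group, r was 0.74 for Scap and 0.83 for Srebf2.

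Insig1 and the enzyme median gave r = 0.60 and rho = 0.37 (exact permutation p = 0.0946 and 0.336, adjusted p = 0.509 and 0.691), and r was 0.28 without FSH replicate 2 and vehicle replicate 1. For Insig2 the values were r = −0.53 and rho = −0.52 (exact permutation p = 0.145 and 0.162, adjusted p = 0.509 and 0.680), and r was −0.19 without FSH replicates 2 and 3. Leaving out the farthest rats also narrows the range, so the smaller r cannot show whether the relations rest on those rats. With values centred within each group, r was 0.64 for Insig1 and −0.51 for Insig2. Mylip gave r = 0.18 and rho = 0.30 with the enzymes (exact permutation p = 0.629 and 0.437, adjusted p = 0.772 and 0.691). Stard4 gave r = −0.15 and rho = −0.27 (exact permutation p = 0.687 and 0.493, adjusted p = 0.772 and 0.691). With values centred within each group, none of the 21 relations passed either.

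Enzyme by enzyme, as a description over rats that share the same libraries, Srebf2 and Scap had positive r with 19 of 19 enzymes each, with medians of 0.72 and 0.65 on values centred within groups. The enzymes were measured in the same rats, so these are not 19 separate results. Insig1 had positive r with 18 of 19 and a median of 0.58, and Insig2 with 3 of 19 and a median of −0.51. The median r of these 4 genes with all 10801 genes of at least 1 CPM lay between −0.01 and 0.01. Stard4 had positive r with 8 of 19 enzymes and a median of −0.08, and Mylip with 17 of 19 and a median of 0.19. Between Stard4 and Insig1, r was 0.96 among the 4 FSH rats and −0.82 among the 5 vehicle rats, a difference that was not tested. The FSH value rests on FSH replicate 2, with Insig1 at 135 CPM and Stard4 at 19.2 CPM. FSH replicates 1, 3 and 4 had Insig1 at 322, 347 and 339 CPM and Stard4 at 43.8, 37.5 and 36.7 CPM. Among these, replicate 1 had the lowest Insig1 and the highest Stard4. Centred within groups, r over all rats was 0.13.

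**Figure D5:**
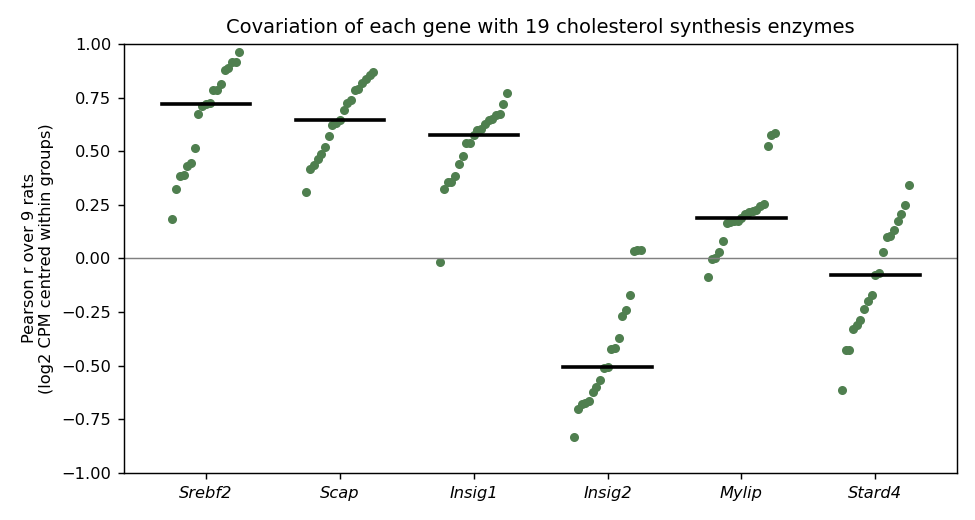
Pearson r over 9 rats between each gene and each of 19 cholesterol synthesis enzymes (points), on log2 CPM centred within groups, with the median as a bar. Srebf2, Scap and Insig1 have medians of 0.72, 0.65 and 0.58, Insig2 of −0.51, Mylip of 0.19 and Stard4 of −0.08.

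The genes most like each of the 6 by the same centred r, over 9 rats, were as follows and carry no p. Each was picked for a high r among 10801 genes compared, and such picking gives large values over 9 rats. These values alone show no link between genes. For Srebf2 they were Idi1, the isopentenyl diphosphate isomerase of the mevalonate pathway, Zfp219 and Gtf2h4, each at 0.96. Scap was closest to Trpm2 (0.95), Xrcc4 (0.95) and Rdh11 (0.94). Insig1 was closest to Ostm1 (0.97), Creb3 (0.92) and Adat2 (0.92), and Insig2 to Kank1 (0.97), Zfp706 (0.94) and Sar1b (0.94). Mylip was closest to Zfp710 (0.98), Soat1 (0.97) and Igsf6 (0.94), and Stard4 to Lysmd3 (0.95), Srp19 (0.95) and Foxj2 (0.93).

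Markers of other cell types moved with Mylip from rat to rat. Its r was positive with 11 of 11 Kupffer cell and macrophage markers, from 0.46 to 0.79 with a median of 0.71, where the other 5 genes had medians between −0.26 and 0.22. Scap had positive r with 10 of these 11 (median 0.22). Mylip also had positive r with 4 of 4 T, NK and B cell markers (median 0.42) and 3 of 3 neutrophil markers (median 0.39). With the former, Scap had a median of 0.45 and the other 4 genes lay between −0.27 and 0.21. With the latter, the other 5 genes lay between −0.31 and 0.38. The Kupffer cell and macrophage markers summed to 551 to 861 CPM with FSH and 348 to 916 CPM with vehicle. The part of all these markers in the Mylip values was not tested. Srebf2 and Insig2 had median r of 0.65 and −0.71 with the 4 erythroid markers. The medians of Stard4, Mylip, Scap and Insig1 with them were 0.48, 0.44, 0.36 and 0.17. The erythroid markers summed to 121 to 490.1 CPM with FSH and 75.9 to 157 CPM with vehicle, and the part of blood in these values was not tested either. With the 9 sinusoidal endothelial markers, whose fold changes were all positive, r was positive for 9 of 9 with each of Srebf2 (median 0.53), Scap (median 0.39) and Mylip (median 0.35), while the other 3 genes had medians between −0.07 and −0.01. The part of these cells in the relations of Srebf2 and Scap with the enzymes was not tested.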

How the data were processed

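The authors deposited whole-number read counts per gene, not normalised, for 24496 genes with symbols and Ensembl identifiers; libraries were paired-end and strand-specific per the labels' protocols. Rat build rn6 and the tools STAR, DESeq2 and edgeR are named, without roles, per the submitters' processing notes. Their versions, the annotation and how strand was treated in counting are not stated in the sources at hand. Each rat is 1 library.

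Groups were compared with edgeR 4.0.16 under R 4.3.3 (quasi-likelihood F-test, 2-sided, TMM scaling, filtering by group, Benjamini-Hochberg over 11924 genes holding 99.96% of counts, threshold 0.05); standard errors and 95% intervals come from the F statistic. The smallest chi-square per degree of freedom between replicates was 27.4. Only the edgeR steps were tested on simulated counts, with changes larger than those of the genes described. Alternatives used DESeq2 1.42.0 and limma 3.58.1, other scalings and filters, and each rat left out. Correlations use log2 CPM (prior count 2) and exact permutation (362880 orders). Members and lists were chosen with earlier results of these data known. Also named are the 3 genes of smallest p in each list and the 3 most like each gene among those of at least 1 CPM. In the latter choice, genes whose symbol is only a locus, clone or other provisional identifier were passed over. In the lists, 12 entries had no match by symbol and were not analysed here; some genes that these rules take, and other genes of this axis, are not reported here.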

Additional observations from a re-analysis of the deposited data

Results flagged for a closer look

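Of 54 sets of values (27 measures in each group), 5 had 1 rat far from the others of its group, and chance gives about 1 in 20. Insig1 in FSH replicate 2 was lowest at 135 CPM, with the next FSH rat at 322 CPM. That rat also had the highest Insig2 of the 9 livers. Without it the log2 fold changes were −0.52 for Insig1 and 0.06 for Insig2, against −0.75 and 0.25 with all rats. Other rats moved these values too: Insig1 was −0.56 without vehicle replicate 1, and Insig2 was 0.44 without FSH replicate 3.

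Abcg8 stood out in both groups: it was highest at 7.71 CPM in FSH replicate 3 (next 1.51) and at 1.98 CPM in vehicle replicate 2 (next 0.733). Rxra was highest in vehicle replicate 3 at 327 CPM (next 302), and Lipa was lowest in vehicle replicate 1 at 437 CPM (next 524).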

How the results depend on the processing

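None of the 6 genes passed under any alternative. Leaving out 1 rat moved the log2 fold change of Srebf2 between −0.034 and 0.12 and that of Mylip between −0.15 and 0.028; no other setting turned a sign among the 6. Over all genes, 4 passed (3 higher, 1 lower), against 181 with DESeq2 (115 higher, 66 lower) and 12 at FDR 0.10 (9 higher, 3 lower); lower calls were 2 with limma-voom and 0 with total counts alone or no filter. Leaving out 1 rat gave 0 to 4 calls in all, 0 to 4 higher and 0 lower. The list of SREBP processing had 1 call (Sec23a) with DESeq2, limma-voom or FDR 0.10. The replicate block gave 5 higher and 0 lower calls. Rats with the same number did not deviate together over all genes (r −0.04 to 0.04), and the numbers were not taken to pair rats. Such values cannot exclude a batch shared by rats of the same number. Among correlations, Insig1 with Stard4 turned to 0.13 when centred within groups, and without the 2 farthest rats Srebf2 with Insig2 turned to 0.093, Srebf2 with Mylip to −0.40, Scap with Mylip to −0.20, Scap with Stard4 to 0.52 and Insig2 with Stard4 to 0.52; the cause was not tested. Precision is limited by the 9 rats and, for Mylip, by 104 to 167 counts per library.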
